A study of Homo sapiens with 18 samples.

Results

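The genes described here are 40 interferon-stimulated genes, a set named from general knowledge of the response to interferon. A gene was measured where the authors' tables named a probe set for it, which was the case for 36 of the 40 genes, out of 19141 named genes in all. IRF7, OAS3, UBE2L6 and HERC5 had no probe set of that name in the tables used here. The 36 genes carried 63 probe sets, and 19 of them had more than 1. Where a gene had several, the brightest of them on average across the 18 arrays stands for it. The authors' tables list probe sets called between 6 and 2 weeks in either cell line, so whether a gene has a name depends on that contrast, for these genes as for all others.

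The RNA came from mouse intraductal (MIND) xenografts, in which human cells of ductal carcinoma in situ (DCIS) are injected into the mammary ducts of mice and grow as DCIS-like lesions. The groups were SUM225, a HER2-positive line without estrogen or progesterone receptor, at 2, 6 and 10 weeks after injection, and DCIS.COM, a basal-like line with none of the 3 receptors, at the same weeks. Each group had 3 replicates, each of them the pooled cells of 5 mice, hybridized to 1 Affymetrix human U133 Plus 2.0 array. All hosts were virgin female NSG mice, which lack T, B and natural killer cells, and no group was given interferon or another agent. Cells were selected magnetically for human EpCAM, an epithelial surface protein. Each subtype stands on 1 cell line, so a difference between the lines cannot be told apart from a difference between the subtypes. Values are RMA signals on the log2 scale, in which a difference of 1 is a 2-fold change. They carry no call of presence, so a low value cannot be told apart from background. The probes are designed for human transcripts, and how far mouse RNA binds them was not tested.

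Interferons are secreted proteins that cells release on sensing foreign or misplaced nucleic acid. Type I interferons (alpha, beta and others) and type III interferons (lambda) bind separate receptors but activate the same kinases, JAK1 and TYK2. These phosphorylate STAT2, which joins IRF9 in a complex that binds the interferon-stimulated response element in promoters. Interferon gamma acts through another receptor, and its signal reaches promoters at the gamma-activated site. Genes switched on in this way block viral entry, translation and replication, label proteins with the ubiquitin-like ISG15, present antigen, and recruit leukocytes. In breast cancers, expression of these genes varies between tumors and also occurs without infection.

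The motif GAAANNGAA, the core of the response element, was found on either strand in 24 of the 33 genes of the set with a RefSeq promoter window (GRCh38.p14), which runs from 250 bases before to 50 bases after the transcript's start. Over all 27305 genes with such a window it was found in 9.86%. STAT2, IRF1, IRF9, OAS1, UBE2L6, HERC6, SAMD9L, IFI35 and XAF1 had no match in their windows. TTCNNNGAA, the form of the gamma-activated site, was found in 11 of the 33 genes, and in 9.38% of all genes. Bases 170 to 51 before the start are shown for 4 genes, 3 of them higher in SUM225 (IFI6, IFI27, ISG15) and 1 higher in DCIS.COM (ISG20), with GAAANNGAA in capitals on either strand. ISG20 lies on the plus strand at chr15:88638846-88638965, IFI6 on the minus strand at chr1:27672243-27672362, ISG15 on the plus strand at chr1:1013327-1013446 and IFI27 on the plus strand at chr14:94110566-94110685.
ISG20: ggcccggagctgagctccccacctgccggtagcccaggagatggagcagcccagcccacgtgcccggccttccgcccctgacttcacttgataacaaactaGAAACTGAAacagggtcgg
IFI6: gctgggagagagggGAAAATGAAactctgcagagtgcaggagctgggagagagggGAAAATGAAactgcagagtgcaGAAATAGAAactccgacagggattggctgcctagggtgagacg
ISG15: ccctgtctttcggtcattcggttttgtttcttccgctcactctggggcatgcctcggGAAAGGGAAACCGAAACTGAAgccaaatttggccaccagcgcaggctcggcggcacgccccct
IFI27: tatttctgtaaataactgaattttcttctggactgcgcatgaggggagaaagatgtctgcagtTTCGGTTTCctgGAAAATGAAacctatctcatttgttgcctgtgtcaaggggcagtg
ISG20 held 1 match, IFI6 held 3 separate matches, ISG15 held 3 that overlap, and IFI27 held 2, the first on the opposite strand, with a TTCNNNGAA match that overlaps both. All 4 were chosen among the genes that hold the motif.

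The 2-week SUM225 replicates stood apart from each other, which bears on every comparison that uses them. Pearson's r over all probe sets was 0.76 to 0.926 among these 3 arrays and at least 0.966 within each of the other groups. EPCAM, the gene of the sorting antigen, was 12.73 in replicate 1, 11.72 in replicate 2 and 8.59 in replicate 3. ERBB2, which encodes HER2, was 12.42, 11.32 and 9.21 in the same order, and the median of the 12 epithelial markers was 10.29, 8.75 and 7.55. PTPRC, the leukocyte antigen CD45, was 4.56, 5.04 and 5.42, and the medians of 18 leukocyte and 11 fibroblast markers were highest in replicate 3, at 6.86 and 7.66. In the later weeks the lines showed their own markers. KRT14, a basal keratin, was 7.20 to 7.94 in SUM225 and 13.04 to 13.40 in DCIS.COM at 6 and 10 weeks.

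Among the interferon-stimulated genes, the per-array median at 2 weeks in SUM225 was 7.41 in replicate 1, 6.07 in replicate 2 and 5.98 in replicate 3. Replicate 1 was the highest of the 3 arrays in 30 of the 36 genes, where this was so in 37.7% of all genes. Its excess over the mean of replicates 2 and 3 had a median of 1.34. Replicate 1 is also the array with the highest epithelial markers. The part of the cell mixture in these values was not tested. In such bulk RNA, fewer carcinoma cells and less RNA per cell cannot be told apart.

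**Figure D1:**
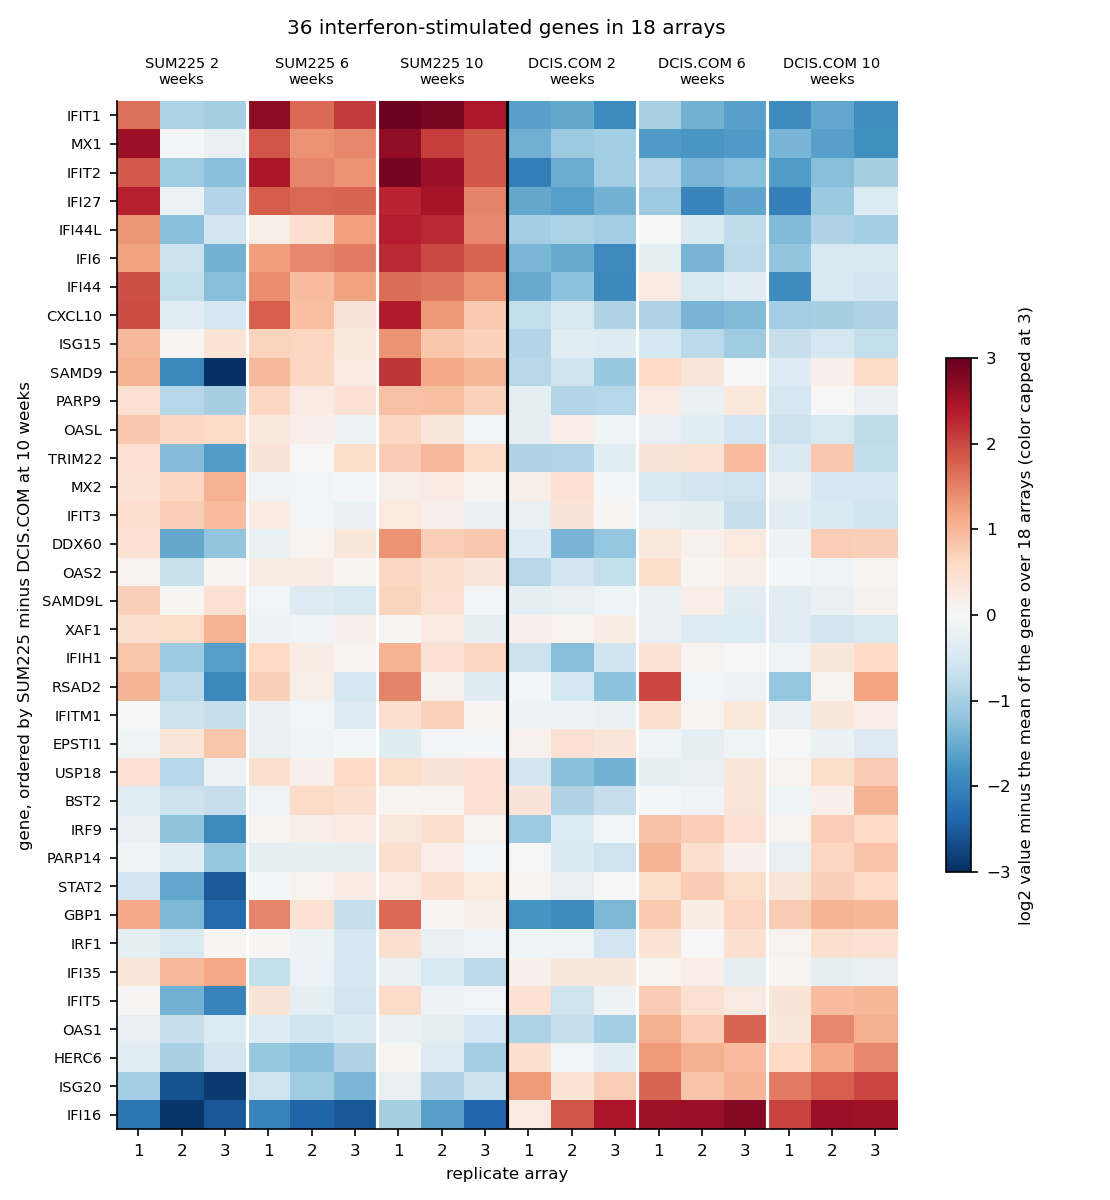
Log2 value of each of the 36 measured genes (rows) in each of the 18 arrays (columns), minus the gene's mean over all arrays, with the color scale capped at 3. The genes are ordered by SUM225 minus DCIS.COM at 10 weeks, with IFIT1 at the top and IFI16 at the bottom, and replicate 1 of SUM225 at 2 weeks is redder than replicates 2 and 3 in most rows.

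The first question was how the cell lines differed once the lesions had formed. At 6 weeks 11 of the 36 genes were higher and 8 lower in SUM225 than in DCIS.COM (limma, adjusted p under 0.05), where 19.7% of all genes were higher and 17.2% lower. At 10 weeks 15 were higher and 4 lower, against 16.4% and 15.9% of all genes. With all 18 arrays in 1 fit 7 were higher and 4 lower at 6 weeks. The shares of all genes called, here and below, come only from fits of the compared groups with all their arrays. The median difference over the 36 genes was 0.10 at 6 weeks and 0.47 at 10 weeks, and over all genes it was 0.02 and -0.01. The arrays of the 2 weeks are separate, and 11 genes were called higher at both: IFIT1, IFIT2, ISG15, MX1, MX2, OASL, IFI6, IFI27, IFI44, IFI44L and CXCL10. IFI16, ISG20, OAS1 and HERC6 were called lower at both. In 12 genes all 6 later SUM225 arrays lay above all 6 later DCIS.COM arrays, a pattern found in 16.7% of all genes, and in 4 they all lay below, which was found in 15.4%. In the other 20 genes the arrays of the lines overlapped.

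**Figure D2:**
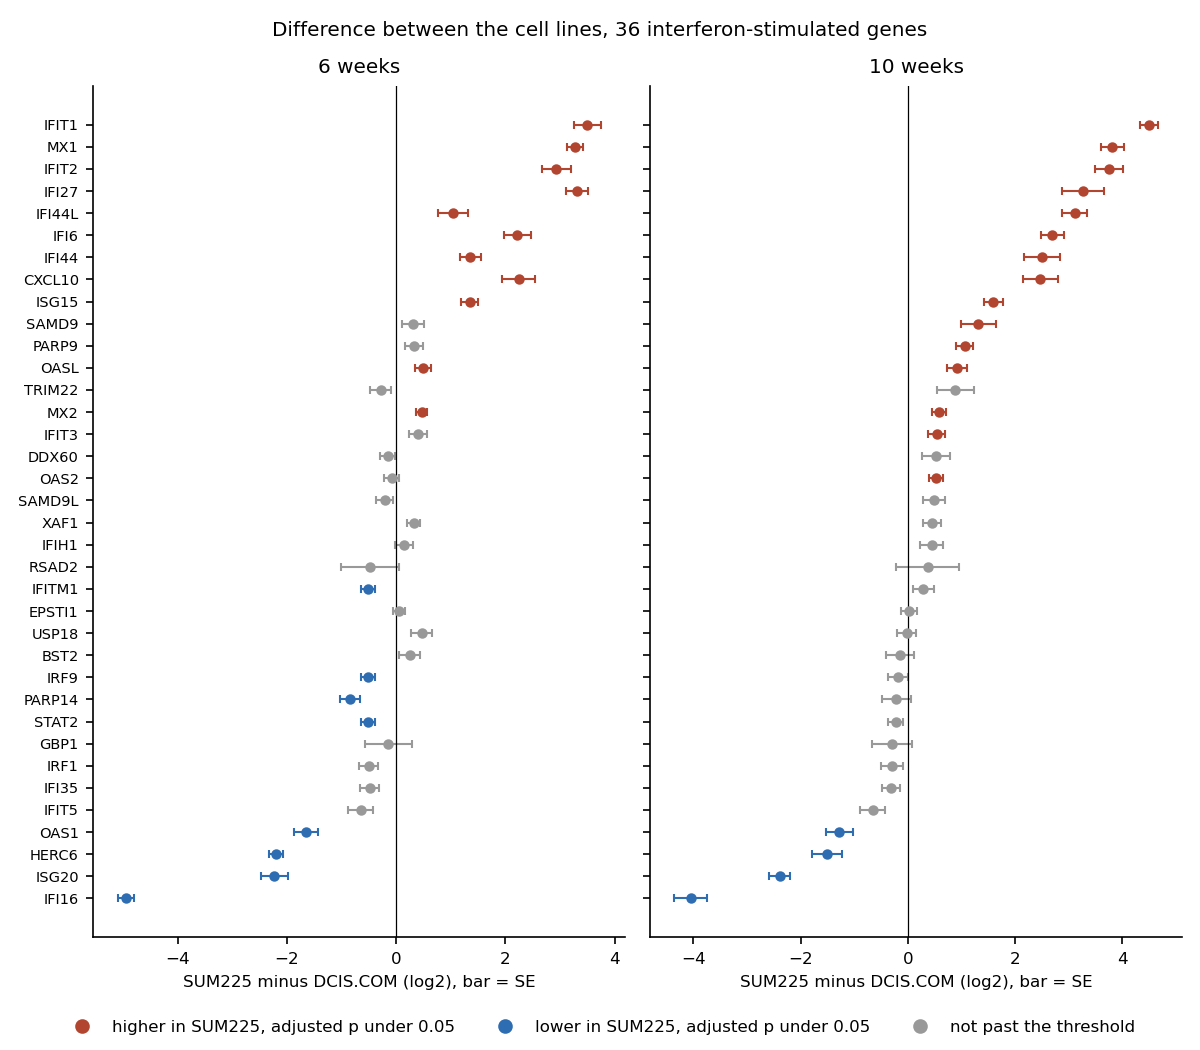
Difference SUM225 minus DCIS.COM (log2, x axis) at 6 weeks (left) and 10 weeks (right) for the 36 genes, as the limma estimate with its SE from 3 arrays per line. Points past the threshold (adjusted p under 0.05) are red where SUM225 was higher and blue where it was lower, and the estimates run from -4.95 for IFI16 to 3.50 for IFIT1 at 6 weeks and from -4.05 to 4.50 for the same genes at 10 weeks.

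The IFIT proteins bind viral RNA and hold back its translation, and IFIT1, which recognizes the foreign RNA cap, had the widest gap upward. In SUM225 IFIT1 was 8.47, 7.50 and 7.89 at 6 weeks and 8.74, 8.62 and 8.21 at 10 weeks, against 4.82, 4.38 and 4.17 at 6 weeks and 3.91, 4.24 and 3.92 at 10 weeks in DCIS.COM. Every later SUM225 array was above every DCIS.COM array of any week. The difference was 3.50 ± 0.24 (SE) at 6 weeks, an 11.3-fold change (adjusted p = 5.1e-06), and 4.50 ± 0.17 at 10 weeks, or 22.6-fold (adjusted p = 2.2e-07). In DCIS.COM the later values of IFIT1 and MX1 lie at the low end of the scale, where background cannot be told apart from a weak signal. IFIT2, its partner in RNA binding, was 9.49, 8.52 and 8.39 at 6 weeks and 9.92, 9.62 and 8.91 at 10 weeks in SUM225, against 6.16, 5.67 and 5.78 and then 5.36, 5.76 and 6.04 in DCIS.COM. The lines did not overlap in IFIT2, and the difference was 2.93 ± 0.27 at 6 weeks and 3.76 ± 0.26 at 10 weeks (adjusted p = 2.8e-05 and 8.3e-06), with a smaller difference of 0.59 and 1.33 by its second probe set. For IFIT3, which stabilizes IFIT1, the result depended on the probe set. The brighter one differed by 0.40 at 6 weeks (adjusted p = 0.1) and 0.54 at 10 weeks (adjusted p = 0.032), and the other by 2.31 and 3.90 (adjusted p = 0.0044 and 2e-05). IFIT5 was not past the threshold at either week, with differences of -0.65 and -0.66.

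MX1 and MX2 are dynamin-like GTPases that trap viral nucleocapsids. MX1 was 8.21, 7.68 and 7.77 at 6 weeks and 8.99, 8.39 and 8.19 at 10 weeks in SUM225, against 4.64, 4.58 and 4.62 and then 4.94, 4.70 and 4.48 in DCIS.COM. The 6 later SUM225 arrays stood far above every later DCIS.COM array. The difference was 3.28 ± 0.15 at 6 weeks (9.70-fold, adjusted p = 2.8e-07) and 3.82 ± 0.21 at 10 weeks (14.1-fold, adjusted p = 2.2e-06). MX2 showed a smaller difference of 0.47 ± 0.10 and 0.58 ± 0.14 (adjusted p = 0.0058 and 0.011). IFITM1, which blocks viral fusion, was lower in SUM225 at 6 weeks by 0.52 on the log2 scale (adjusted p = 0.015) and not past the threshold at 10 weeks. RSAD2 (viperin), BST2 (tetherin), GBP1 and TRIM22 did not pass it at either week, and in these 4 genes the differences ran from -0.47 to 0.89.

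ISG15 is the ubiquitin-like protein that is attached to other proteins during the response. It was 7.80, 7.79 and 7.45 at 6 weeks and 8.48, 7.97 and 7.83 at 10 weeks in SUM225, against 6.62, 6.34 and 6.07 and then 6.46, 6.62 and 6.43 in DCIS.COM. The lines did not overlap at any week in this gene. The difference was 1.34 ± 0.16 at 6 weeks and 1.59 ± 0.18 at 10 weeks (adjusted p = 0.00017 and 0.00015). USP18 and HERC6 did not follow ISG15, and UBE2L6 and HERC5, also of the pathway, had no named probe set. USP18, which removes ISG15 and also damps signaling at the type I receptor, differed by 0.47 and -0.02 (adjusted p = 0.1 and 0.96). HERC6, the main ISG15 ligase of mice and a relative of the human ligase, was lower in SUM225, at 4.97, 4.87 and 5.20 at 6 weeks and 6.15, 5.73 and 5.09 at 10 weeks, against 7.39, 7.19 and 7.07 and then 6.71, 7.24 and 7.55 in DCIS.COM. That is a fall of 2.20 and 1.51 on the log2 scale relative to DCIS.COM (adjusted p = 1.8e-06 and 0.0034), with no overlap. Of the 3 dimmer HERC6 probe sets 1 was also called lower at both weeks, by 0.35 and 0.59, and the other 2 were not called.

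Among small interferon-induced proteins of less certain function, IFI27, a mitochondrial protein, was 8.87, 8.76 and 8.80 at 6 weeks and 9.34, 9.52 and 8.54 at 10 weeks in SUM225, against 5.95, 5.08 and 5.47 and then 4.99, 5.94 and 6.64 in DCIS.COM. The lowest later SUM225 array was well above the highest DCIS.COM array. The difference was 3.31 ± 0.19 and 3.27 ± 0.39 (adjusted p = 1.6e-06 and 0.00023). IFI6, which counters cell death and flavivirus replication, was 8.75, 8.94 and 9.02 and then 9.74, 9.48 and 9.23 in SUM225, against 7.23, 6.11 and 6.71 and then 6.31, 7.02 and 7.02 in DCIS.COM. The lines did not overlap, and IFI6 differed by 2.22 ± 0.24 and 2.70 ± 0.22 (adjusted p = 8.6e-05 and 2e-05). IFI44L, a paralog of IFI44 that restrains several viruses, was 5.18, 5.52 and 6.24 and then 7.36, 7.27 and 6.45 in SUM225, against 4.998, 4.57 and 4.25 and then 3.67, 4.07 and 3.99 in DCIS.COM. The gap of IFI44L at 6 weeks was narrow, since the lowest SUM225 array was 5.18 and the highest DCIS.COM array 4.998, and at 10 weeks it was wide. The difference was 1.04 ± 0.27 (adjusted p = 0.015) and 3.12 ± 0.24 (adjusted p = 1.4e-05). IFI44 was 7.82, 7.37 and 7.66 and then 8.12, 8.03 and 7.78 in SUM225, against 6.70, 5.97 and 6.11 and then 4.56, 5.98 and 5.87 in DCIS.COM, so again without overlap. It differed by 1.36 ± 0.20 and 2.50 ± 0.33 (adjusted p = 0.00053 and 0.0004). IFI35 and EPSTI1 were not past the threshold at either week. For XAF1, which promotes cell death, the result depended on the probe set. The brightest differed by 0.32 and 0.45 and was not past the threshold, and the other 2, nearly as bright, were higher in SUM225, by 1.41 and 0.74 at 6 weeks (adjusted p = 1.9e-05 and 0.0037) and by 2.16 and 1.20 at 10 weeks (adjusted p = 3.5e-06 and 0.00056).

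CXCL10 is a chemokine that draws activated T cells and natural killer cells through CXCR3. It was 8.38, 7.49 and 6.98 at 6 weeks and 8.96, 7.89 and 7.38 at 10 weeks in SUM225, against 5.67, 5.18 and 5.27 and then 5.56, 5.59 and 5.67 in DCIS.COM. The SUM225 arrays varied by over 1 unit within each week and still all lay above DCIS.COM. The difference was 2.24 ± 0.30 and 2.48 ± 0.33 (adjusted p = 0.00035 and 0.00042). CXCL11, a second ligand of CXCR3, was also higher in SUM225, by 1.52 ± 0.38 and 2.32 ± 0.48 (adjusted p = 0.013 and 0.0059).

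IFI16, a sensor of DNA in the nucleus and cytoplasm, showed the widest gap in the other direction. It was 4.13, 3.73 and 3.60 at 6 weeks and 5.14, 4.50 and 3.77 at 10 weeks in SUM225, against 8.69, 8.74 and 8.88 and then 8.17, 8.71 and 8.68 in DCIS.COM. The SUM225 values lie at the low end of the scale, where background cannot be told apart from a weak signal. IFI16 was lower in SUM225 by 4.95 ± 0.15 at 6 weeks (31.0-fold, adjusted p = 2.5e-08) and by 4.05 ± 0.31 at 10 weeks (16.6-fold, adjusted p = 1.4e-05). ISG20, an exonuclease that degrades single-stranded RNA, was 8.83, 8.38 and 8.09 and then 9.22, 8.53 and 8.80 in SUM225, against 11.21, 10.31 and 10.48 and then 11.01, 11.25 and 11.47 in DCIS.COM. The lines did not overlap, the difference of ISG20 was -2.23 ± 0.25 and -2.39 ± 0.20 (adjusted p = 0.0001 and 2.2e-05), and its second probe set gave -2.13 and -2.37. The RNA sensors IFIH1 (MDA5), which detects long double-stranded RNA, and DDX60, a helicase that assists such sensing, were not past the threshold, with differences from -0.16 to 0.53. A dimmer IFIH1 probe set was higher in SUM225 at 10 weeks, by 1.72 (adjusted p = 0.0019), and differed by 0.36 at 6 weeks (adjusted p = 0.26).

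The 2-5A synthetases make the second messenger that switches on RNase L, and their members went apart. OAS1 was 6.47, 6.26 and 6.42 at 6 weeks and 6.67, 6.58 and 6.34 at 10 weeks in SUM225, against 7.91, 7.60 and 8.61 and then 7.20, 8.31 and 7.92 in DCIS.COM. All later SUM225 arrays lay below the lowest later DCIS.COM array. OAS1 differed by -1.66 ± 0.22 and -1.28 ± 0.25 (adjusted p = 0.00033 and 0.0043), but its second probe set gave -0.64 and -0.49 and was not past the threshold (adjusted p = 0.063 and 0.12). OASL, which lacks synthetase activity and assists RNA sensing, was higher in SUM225 by 0.49 ± 0.15 and 0.92 ± 0.19 (adjusted p = 0.032 and 0.0053). OAS2 differed by -0.08 at 6 weeks (adjusted p = 0.75) and was higher by 0.52 ± 0.13 at 10 weeks (adjusted p = 0.016), where its second probe set differed by 0.14 (adjusted p = 0.66).

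**Figure D3:**
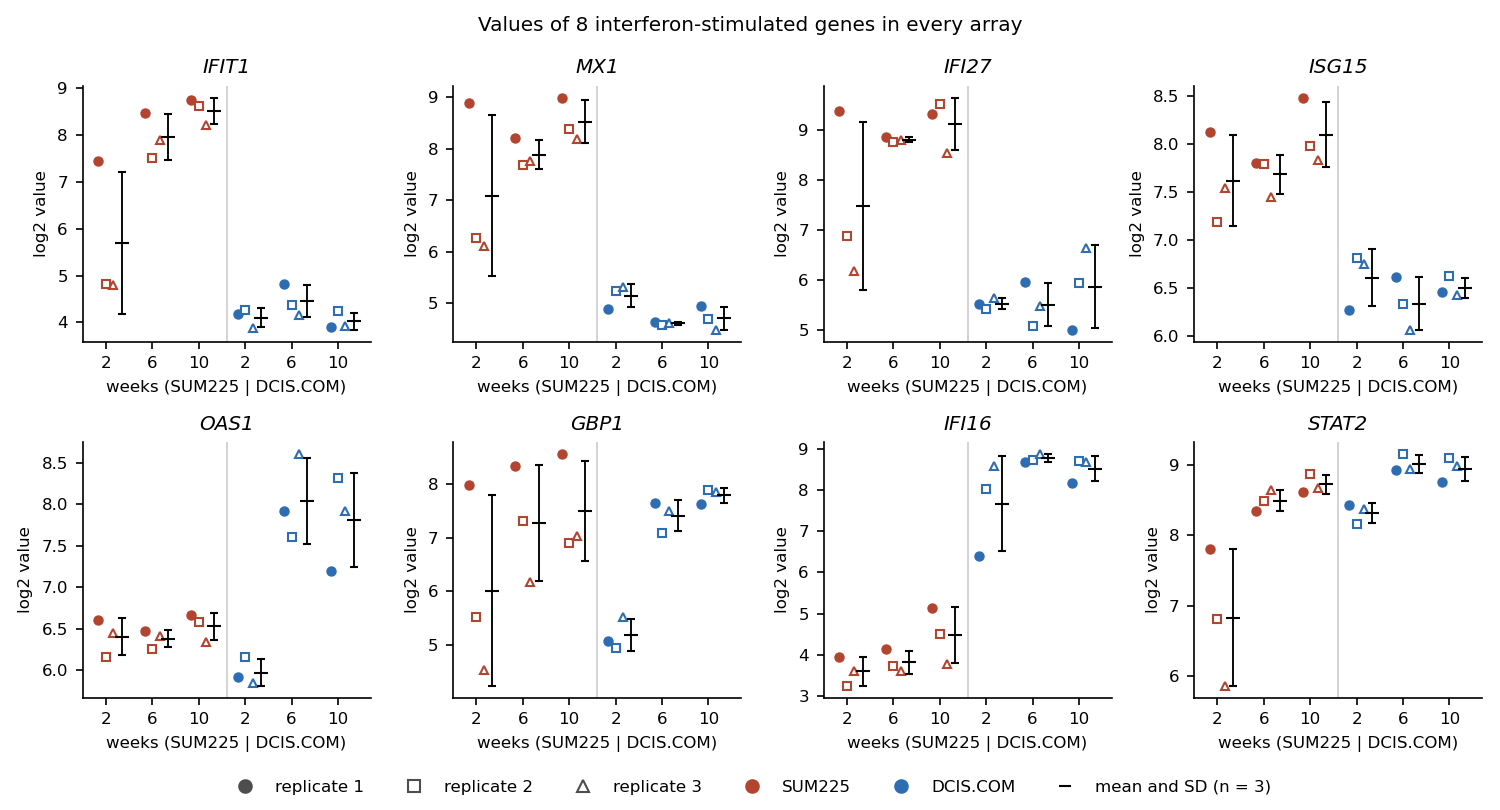
Log2 values (y axis) of 8 interferon-stimulated genes in each array, by week after injection (x axis), for SUM225 (red, left of the gray line) and DCIS.COM (blue, right), with the mean and SD of the 3 arrays in black. IFIT1, MX1, IFI27 and ISG15 lie higher in SUM225 at 6 and 10 weeks, OAS1 and IFI16 lie lower, GBP1 overlaps, and the 3 arrays of SUM225 at 2 weeks are spread widely in most panels.

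None of the 3 measured transcription factors that carry the signal was higher in SUM225. STAT2 was 8.34, 8.49 and 8.64 at 6 weeks and 8.62, 8.88 and 8.68 at 10 weeks in SUM225, against 8.93, 9.16 and 8.94 and then 8.76, 9.10 and 8.98 in DCIS.COM. The lines were apart at 6 weeks and overlapped at 10 weeks. STAT2 was lower in SUM225 by 0.52 ± 0.12 at 6 weeks (adjusted p = 0.0099), and the difference was -0.22 at 10 weeks (adjusted p = 0.33). Its 2 dimmer probe sets differed by -0.14 to 0.09 and were not past the threshold. IRF9, the DNA-binding partner of the STATs, was 8.08, 8.18 and 8.23 and then 8.31, 8.46 and 8.10 in SUM225, against 8.88, 8.72 and 8.45 and then 8.10, 8.73 and 8.58 in DCIS.COM. It too was lower at 6 weeks only by the threshold (-0.52 ± 0.13, adjusted p = 0.013, and -0.18, adjusted p = 0.58, at 10 weeks), and whether the 2 weeks differ was not tested. IRF1, a factor induced by interferon gamma and by type I interferon, was 7.95, 7.73 and 7.39 and then 8.36, 7.67 and 7.78 in SUM225, against 8.30, 7.89 and 8.37 and then 7.99, 8.38 and 8.32 in DCIS.COM. The arrays of IRF1 overlapped and it was not past the threshold (adjusted p = 0.059 and 0.37). Its second probe set, nearly as bright, was lower in SUM225 by 1.95 at 6 weeks and by 1.78 at 10 weeks (adjusted p = 0.00019 and 0.0011). PARP14 was lower at 6 weeks by 0.84 on the log2 scale (adjusted p = 0.0077), with -0.21 at 10 weeks (adjusted p = 0.68), and a dimmer probe set differed by 0.08 at 6 weeks (adjusted p = 0.68). PARP9, its partner in ADP-ribosylation, differed by 0.33 at 6 weeks (adjusted p = 0.18) and was higher at 10 weeks by 1.06 ± 0.16 (adjusted p = 0.00087), where its second probe set differed by 0.23 (adjusted p = 0.39). SAMD9, a restriction factor of poxviruses, differed by 0.30 (adjusted p = 0.32) and was higher at 10 weeks by 1.32 ± 0.32 (adjusted p = 0.014), and its neighbor SAMD9L was not past the threshold at either week.

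At 2 weeks 0 of the 36 genes were higher and 2 lower in SUM225, where 0.0784% of all genes were higher and 2.37% lower. The 2 genes were IFI16 and ISG20. IFI16 was 3.94, 3.23 and 3.60 in SUM225, against 6.39, 8.04 and 8.60 in DCIS.COM, a difference of -4.08 ± 0.54 (adjusted p = 0.013). ISG20 was 8.43, 6.85 and 6.58 in SUM225, against 10.73, 9.87 and 10.19 in DCIS.COM, a difference of -2.98 ± 0.49 (adjusted p = 0.031). In both genes the lines did not overlap. The count of called genes moved with the SUM225 arrays used. Without replicate 1 of SUM225 12 genes were called, 6 higher and 6 lower. With all 18 arrays in 1 fit 9 were higher and 3 lower. The share of all genes called was not computed under these settings, so the shares above do not serve as their background. In replicate 1 alone IFIT1 was 7.44, MX1 8.90, IFI27 9.38 and IFI44 8.38, values in or near the range of the later SUM225 arrays. In replicates 2 and 3 IFIT1 was 4.83 and 4.80, MX1 6.26 and 6.12, IFI27 6.88 and 6.18, and IFI44 5.72 and 5.17.

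The second question was how these genes changed between 2 and 6 weeks, while the lesions formed. Of the 36 genes 17 rose and 4 fell in DCIS.COM at 6 weeks, where 22.5% of all genes rose and 20% fell. The median difference was 0.61 over the 36 genes and -0.14 over all genes. All 3 measured transcription factors rose, as did 2 of 3 members of the 2-5A synthetase family, 2 of 4 of the sensing and RNA decay genes, both genes of ADP-ribosylation and 0 of 4 IFIT genes, although the second probe set of IFIT3 rose by 1.43 (adjusted p = 0.045). The 10-week arrays gave 14 genes higher and 3 lower than at 2 weeks, where 21.1% of all genes were higher and 15.9% lower, with a median difference of 0.60. These 2 comparisons share the 2-week arrays. Without 1 array at a time 12 to 26 genes were called at 6 weeks, with 12 without replicate 1 or 3 of 6 weeks and 13 without replicate 2 or 3 of 2 weeks. At 10 weeks 3 to 24 were called, with 3 without replicate 2 or 3 of 10 weeks, and 4 and 5 without replicate 2 and 3 of 2 weeks. With all 18 arrays in 1 fit 6 were higher and 1 lower at 6 weeks, and 7 were higher and 3 lower at 10 weeks. With every array centered on its median the split was 18 higher and 1 lower at 6 weeks, and 13 higher and 1 lower at 10 weeks.

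GBP1, a large GTPase that coats intracellular pathogens and is strongly induced by interferon gamma, had the largest rise among the brightest probe sets. It was 5.08, 4.94 and 5.51 at 2 weeks, 7.64, 7.09 and 7.50 at 6 weeks and 7.63, 7.88 and 7.85 at 10 weeks. All later arrays lay well above those of 2 weeks. The change was 2.23 ± 0.20 at 6 weeks (4.70-fold, adjusted p = 0.0015) and 2.61 ± 0.19 at 10 weeks (adjusted p = 0.00076) against 2 weeks. Its size depended on the probe set. Dimmer GBP1 probe sets rose less, by 1.16 and 0.995 at 6 weeks and by 1.52 and 1.30 at 10 weeks. The dimmest differed by -0.275 and -0.182 and was not past the threshold. OAS1 was 5.92, 6.16 and 5.85 at 2 weeks, 7.91, 7.60 and 8.61 at 6 weeks and 7.20, 8.31 and 7.92 at 10 weeks, without overlap between 2 weeks and later. It rose by 2.07 ± 0.24 and 1.83 ± 0.26 (adjusted p = 0.0026 and 0.0057), and its second probe set rose by 2.43 and 2.44. IFI44 was 4.92, 5.21 and 4.51 at 2 weeks, 6.70, 5.97 and 6.11 at 6 weeks and 4.56, 5.98 and 5.87 at 10 weeks. It rose by 1.38 ± 0.24 at 6 weeks (adjusted p = 0.0074), where its second probe set differed by 0.16 (adjusted p = 0.54), and at 10 weeks, where replicate 1 was as low as at 2 weeks, the difference was 0.59 (adjusted p = 0.21).

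TRIM22, a ubiquitin ligase that restricts retroviruses, was 5.09, 5.12 and 5.67 at 2 weeks, 6.37, 6.39 and 6.94 at 6 weeks and 5.56, 6.79 and 5.24 at 10 weeks. In TRIM22 the 10-week arrays spanned both ranges. It rose by 1.28 ± 0.22 at 6 weeks (adjusted p = 0.0072) and differed by 0.57 at 10 weeks (adjusted p = 0.23). DDX60 was 3.97, 2.97 and 3.18 at 2 weeks, 4.67, 4.48 and 4.64 at 6 weeks and 4.21, 5.10 and 5.07 at 10 weeks. All later arrays of this dim gene were above those of 2 weeks, by 1.23 ± 0.24 and 1.42 ± 0.31 on average (adjusted p = 0.011 and 0.018). IRF9 was 6.91, 7.58 and 7.92 at 2 weeks, and the later values given above all exceeded it. Its rise was 1.21 ± 0.25 at 6 weeks and 1.001 ± 0.27 at 10 weeks (adjusted p = 0.012 and 0.03). STAT2 was 8.43, 8.15 and 8.37 at 2 weeks and rose by 0.69 ± 0.15 and 0.63 ± 0.17 (adjusted p = 0.013 and 0.029), while its 2 dimmer probe sets gave differences from -0.59 to -0.27 that were not past the threshold. IRF1 was 7.77, 7.76 and 7.32 at 2 weeks and rose by 0.57 ± 0.19 and 0.61 ± 0.19 (adjusted p = 0.045 and 0.042). Its second probe set rose by 1.30 and 1.47 (adjusted p = 0.0088 and 0.0096).

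USP18 was 5.59, 4.89 and 4.73 at 2 weeks, 5.87, 5.88 and 6.50 at 6 weeks and 6.25, 6.66 and 6.91 at 10 weeks. Its arrays did not overlap between 2 weeks and later, and it rose by 1.01 ± 0.26 and 1.54 ± 0.26 (adjusted p = 0.021 and 0.0083). IFIH1 was 6.22, 5.57 and 6.26 at 2 weeks, 7.27, 6.96 and 6.85 at 6 weeks and 6.74, 7.19 and 7.46 at 10 weeks, and it rose by 1.01 ± 0.21 and 1.11 ± 0.25 (adjusted p = 0.013 and 0.018). HERC6 was 6.62, 6.02 and 5.79 at 2 weeks, below all later arrays, and it rose by 1.07 ± 0.21 and 1.02 ± 0.27 (adjusted p = 0.012 and 0.029). At 10 weeks 2 of its 3 dimmer probe sets fell, by 0.71 and 0.59. SAMD9, OAS2, PARP9, PARP14, IFITM1 and IFI44L also rose at 6 weeks, by 0.46 to 1.18. A dimmer PARP14 probe set fell by 0.73 (adjusted p = 0.011), and the second probe sets of SAMD9, OAS2, PARP9 and IFITM1 differed by -0.35 to 0.27 and were not past the threshold. Of the 2 dimmer IFIH1 probe sets 1 rose, by 0.53, and the other differed by 0.34 (adjusted p = 0.021 and 0.2).

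Some genes of the set did not rise in DCIS.COM, among them some with the widest gap in favor of SUM225 (IFIT1, MX1, IFI27 and IFIT2). MX1 in DCIS.COM was 4.64, 4.58 and 4.62 at 6 weeks, against 4.89, 5.23 and 5.31 at 2 weeks, and fell by 0.53 ± 0.15 (adjusted p = 0.03). MX2 fell by 0.75 ± 0.16 (adjusted p = 0.015), XAF1 by 0.51 ± 0.13 (adjusted p = 0.023) and EPSTI1 by 0.51 ± 0.15 (adjusted p = 0.03). Of the other XAF1 probe sets 1 fell, by 0.60, and 1 differed by 0.26 (adjusted p = 0.037 and 0.18), and the other EPSTI1 probe set differed by -0.13 (adjusted p = 0.48). With every array centered on its median MX1, XAF1 and EPSTI1 were no longer past the threshold. IFIT1, IFIT2, ISG15 and IFI27 had differences from -0.27 to 0.35 at 6 weeks, none of them past it. The second IFIT2 probe set fell by 0.53 at 6 weeks and by 0.81 at 10 weeks (adjusted p = 0.042 and 0.017). ISG15 was 6.27, 6.81 and 6.75 at 2 weeks and IFI27 was 5.52, 5.41 and 5.63, inside or next to the range of their later arrays. In the same comparison 5 of 12 epithelial markers rose and 0 fell, 3 of 18 leukocyte markers rose and 10 fell, and 0 of 11 fibroblast markers rose and 3 fell, beside the 22.5% of all genes that rose and 20% that fell. Their median over the list was 9.79 to 10.40 in DCIS.COM at 6 weeks and 8.90 to 10.02 at 2 weeks for the epithelial markers, and 5.64 to 5.91 and 6.19 to 6.51 for the leukocyte markers. The part of these markers in the changes was not tested.

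In SUM225 4 of the 36 genes rose and 4 fell at 6 weeks against 2 weeks, where 21.7% of all genes rose and 26.5% fell. With every array centered on its median 3 rose and 1 fell. The median difference was 0.74 over the 36 genes and -0.38 over all genes. IFIT1 rose most, with the later values given above against 7.44, 4.83 and 4.80 at 2 weeks, a change of 2.27 ± 0.69 (adjusted p = 0.043). STAT2 was 7.81, 6.82 and 5.86 at 2 weeks, all below the 6-week arrays, and rose by 1.66 ± 0.45 (adjusted p = 0.039), but a dimmer probe set of STAT2 fell by 1.17 (adjusted p = 0.038). IRF9 was 7.74, 6.78 and 6.09 at 2 weeks and rose by 1.30 ± 0.40 (adjusted p = 0.043). BST2, which tethers budding virions to the cell surface, was 6.76, 7.44 and 7.35 at 6 weeks, against 6.55, 6.22 and 6.17 at 2 weeks, and rose by 0.87 ± 0.26 (adjusted p = 0.041). These 2-week arrays also differed most in their epithelial and HER2 markers.

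IFI35, a partner of NMI in cytokine signaling, was 5.87, 6.38 and 6.03 at 6 weeks, against 6.93, 7.54 and 7.73 at 2 weeks, and fell by 1.31 ± 0.28 (adjusted p = 0.038). MX2 was 5.76, 5.78 and 5.80 at 6 weeks, against 6.28, 6.48 and 6.91 at 2 weeks, and fell by 0.78 ± 0.23 (adjusted p = 0.041). In both genes the weeks did not overlap, and replicate 3 was the highest array of 2 weeks. XAF1 fell by 0.72 and the brighter IFIT3 probe set by 0.74 (adjusted p = 0.047 and 0.044). The other 2 XAF1 probe sets differed by 0.73 and -0.64 and the other IFIT3 probe set by 1.78 (adjusted p = 0.15, 0.053 and 0.15). Dimmer probe sets of HERC6, OAS2, PARP14 and SAMD9L also fell, by 0.67 to 1.31. IRF1 was 7.58, 7.43 and 7.93, ISG15 was 8.12, 7.18 and 7.54 and OAS1 was 6.61, 6.17 and 6.45 at 2 weeks, and their differences at 6 weeks of 0.04, 0.06 and -0.03 were far inside the spread of the arrays. The second probe set of OAS1 differed by 1.09 (adjusted p = 0.052) and that of IRF1 by -0.217 (adjusted p = 0.47).

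The calls between 6 and 2 weeks in SUM225 depended on single arrays. Without replicate 1 of 2 weeks 29 genes were called, 22 higher and 7 lower at 6 weeks, and without any other single array 0 were. The share of all genes called was not computed without these arrays, so the counts cannot be read as particular to the set. Without replicates 2 and 3, with the spread taken from the 6-week arrays, 7 were called, 1 higher and 6 lower, and the median difference was -0.30. STAT2 rose by 0.68 (adjusted p = 0.039) and IFI35 fell by 0.84 (adjusted p = 0.041) in that comparison too, while IFIT1 differed by 0.52 (adjusted p = 0.27). The direction of the set's median thus turned with 2 of the 3 arrays of 2 weeks.

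At 10 weeks against 2 weeks 12 genes of the set were higher and 1 lower in SUM225, where 25.1% of all genes were higher and 33.6% lower. The median difference was 1.06 over the 36 genes and -0.36 over all genes. The comparison shares its 2-week arrays with the preceding one. IFIT1 rose by 2.83 ± 0.67 (7.12-fold, adjusted p = 0.025), IFIT2 by 2.61 ± 0.78 (adjusted p = 0.034) and IFI6 by 2.28 ± 0.60 (adjusted p = 0.028). At 2 weeks IFIT2 was 8.88, 5.97 and 5.78 and IFI6 was 8.70, 6.85 and 6.08, so replicate 1 was close to the 10-week arrays and replicates 2 and 3 were far below them. IFI44L, at 6.33, 3.76 and 4.43 at 2 weeks, rose by 2.19 ± 0.62 (adjusted p = 0.031), and DDX60, at 5.71, 5.09 and 5.15 at 10 weeks, against 4.82, 2.83 and 3.17 at 2 weeks, rose by 1.71 ± 0.50 (adjusted p = 0.033). STAT2 rose by 1.89 ± 0.45 (adjusted p = 0.026), but a dimmer probe set of it fell by 1.19 (adjusted p = 0.025). IRF9, ISG20, IFITM1, BST2, TRIM22 and PARP9 rose as well, by 0.76 to 1.61, and IFI35 fell by 1.31 ± 0.28 (adjusted p = 0.024). The second probe sets of IFIT2, IFITM1 and PARP9 differed by -0.38 to 0.53 and were not past the threshold. In genes whose brightest probe set was not past it, a dimmer one was higher for IFI44, IFIH1, XAF1 and OAS1, by 1.25 to 2.22, and lower for HERC6, OAS2 and PARP14, by 0.84 to 1.36.

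Without replicates 2 and 3 of 2 weeks 4 genes were called at 10 weeks, with STAT2, IFIT1 and IFI6 higher and IFI35 lower, and the median difference was 0.04. Without replicate 1 of 2 weeks 31 were called, without replicate 3 there were 2, and without replicate 2 or any single 10-week array 0. Here too the share of all genes called was not computed without these arrays. In the same comparison 6 of 12 epithelial markers rose and 0 fell, and 1 of 18 leukocyte markers rose and 11 fell, beside the 25.1% of all genes that rose and 33.6% that fell. The epithelial median was 10.55 to 10.70 at 10 weeks and 7.55 to 10.29 at 2 weeks, and the part of the cell mixture in the change was not tested.

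Between 6 and 10 weeks, the later span of the time course, 0 of the 36 genes were past the threshold in either line by limma. In SUM225 0% of all genes were higher and 0.00522% lower at 10 weeks, and in DCIS.COM 0.0157% were higher and 0% lower. The SUM225 values of the set were nevertheless mostly higher at 10 weeks, with 34 of the 36 genes having a higher mean than at 6 weeks, where 42.2% of all genes did. The median difference was 0.38 over the 36 genes and -0.03 over all genes. The largest were IFI44L at 1.38 ± 0.30 (adjusted p = 0.24), DDX60 at 0.88 ± 0.19 (adjusted p = 0.24) and SAMD9 at 0.81 ± 0.29 (adjusted p = 0.58). In 12 of the 36 genes the arrays of 6 and 10 weeks did not overlap, and the share of all genes with this pattern was not computed. IFI44L, DDX60 and SAMD9 were among the 12. So was IFI6, which was 9.74, 9.48 and 9.23 at 10 weeks, against 8.75, 8.94 and 9.02 at 6 weeks. The genes of one array are not independent, and replicate 1 of 10 weeks had the highest median of the set of any array, at 7.88, against 7.25 and 7.18 in replicates 2 and 3. In DCIS.COM the median difference was -0.06 over the 36 genes and -0.002 over all genes.

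The time changes of the lines were compared by the interaction of cell line and week over the 12 arrays of 2 and 6 weeks. None of the 36 genes had a more positive change in SUM225 and 1, OAS1, had a more negative one, where 0.7% and 0.538% of all genes did. OAS1 changed by -0.03 in SUM225 and by 2.07 in DCIS.COM, a difference of -2.09 ± 0.34 (adjusted p = 0.016). Its second probe set gave -1.34 (adjusted p = 0.3). HERC6 came next with -1.55 ± 0.33 (adjusted p = 0.056), followed in unadjusted p by IFI35 at -1.04 and SAMD9L at -0.82 (adjusted p = 0.22 and 0.3). IFIT1, at 1.92 ± 0.80, had an adjusted p of 0.36. Without replicate 1 of SUM225 at 2 weeks 12 genes were called, 9 with a more positive and 3 with a more negative change in SUM225. The share of all genes called was not computed without this array, so 0.7% and 0.538% do not serve as its background.

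The genes upstream of the set were also measured. The 19 measured interferon genes had low signals, with per-array medians of 3.78 to 5.17 in SUM225 and 3.71 to 4.64 in DCIS.COM. Between the lines only 1 of them was past the threshold at each later week. IFNL2, a type III interferon, was 5.44, 5.54 and 5.87 at 6 weeks and 6.85, 6.16 and 6.45 at 10 weeks in SUM225, against 5.09, 4.89 and 4.79 and then 5.12, 4.53 and 4.56 in DCIS.COM. The later arrays of the lines did not overlap, and the difference was 0.69 ± 0.14 and 1.75 ± 0.22 (adjusted p = 0.0046 and 0.00028). At 2 weeks its signals were 6.10, 6.42 and 6.76 in SUM225 and 4.99, 6.27 and 5.57 in DCIS.COM, which overlapped, and IFNL2 fell in SUM225 by 0.81 at 6 weeks (adjusted p = 0.043). Over time 10 of the 19 interferon genes fell in SUM225 at 6 weeks against 2 weeks, where 26.5% of all genes fell. In the same comparison 1 of 18 leukocyte markers rose and 11 fell. The unlike 2-week arrays bear on these counts too, and the part of the cell mixture in them was not tested. In DCIS.COM 4 of the 19 fell, close to the 20% of all genes, and 0 rose in either line.

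Of 9 genes of receptors and their kinases, 1 was higher and 6 lower in SUM225 at 6 weeks and again at 10 weeks. At 6 weeks 19.7% of all genes were higher and 17.2% lower, and 10 weeks gave 16.4% and 15.9%, which also holds for the lists that follow. The per-array median of the receptor list was 7.11 to 7.44 in SUM225 and 8.61 to 8.95 in DCIS.COM at 6 and 10 weeks, without overlap. IFNGR2, a chain of the gamma receptor, was lower in SUM225 by 2.34 ± 0.18 and 2.20 ± 0.18 (adjusted p = 9.1e-06 and 2.2e-05). IFNAR2, a chain of the type I receptor, was lower by 1.83 ± 0.18 and 1.81 ± 0.14 (adjusted p = 5.5e-05 and 1.3e-05), and IL10RB, a chain of the type III receptor, by 0.96 at both weeks. IFNGR1, the other gamma chain, was higher by 0.87 and 0.67. In DCIS.COM 6 of the 9 genes rose and 1 fell at 6 weeks, with IL10RB up by 1.20, IFNGR2 by 1.05, IFNGR1 by 0.99 and JAK1 by 0.96. In SUM225 2 rose and 1 fell. Of all genes 22.5% rose and 20% fell in DCIS.COM at 6 weeks, and 21.7% and 26.5% in SUM225.

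Among 13 sensors, adaptors and kinases that lead to interferon production, 1 was higher and 6 lower in SUM225 at 6 weeks, and 1 was higher and 7 lower at 10 weeks. TMEM173 (STING), the adaptor of cytoplasmic DNA sensing, was lower by 1.10 ± 0.13 and 0.80 ± 0.15 (adjusted p = 0.00017 and 0.0034), the kinase gene IKBKE by 0.69 and 0.75, and MAVS, the adaptor of RNA sensing, by 0.81 at 10 weeks. IRF3 rose in SUM225 by 0.72 at 6 weeks, and ADAR and DDX58 (RIG-I) rose in DCIS.COM by 0.79 each. Of 8 inhibitors of the pathway, 2 were higher in SUM225 at 6 weeks, and 3 were higher and 1 lower at 10 weeks. SOCS1, a feedback inhibitor of JAK kinases, was higher by 1.24 ± 0.15 and 1.38 ± 0.20 (adjusted p = 0.0002 and 0.00077), and the phosphatase gene PTPN6 by 0.76 and 0.68.

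**Figure D4:**
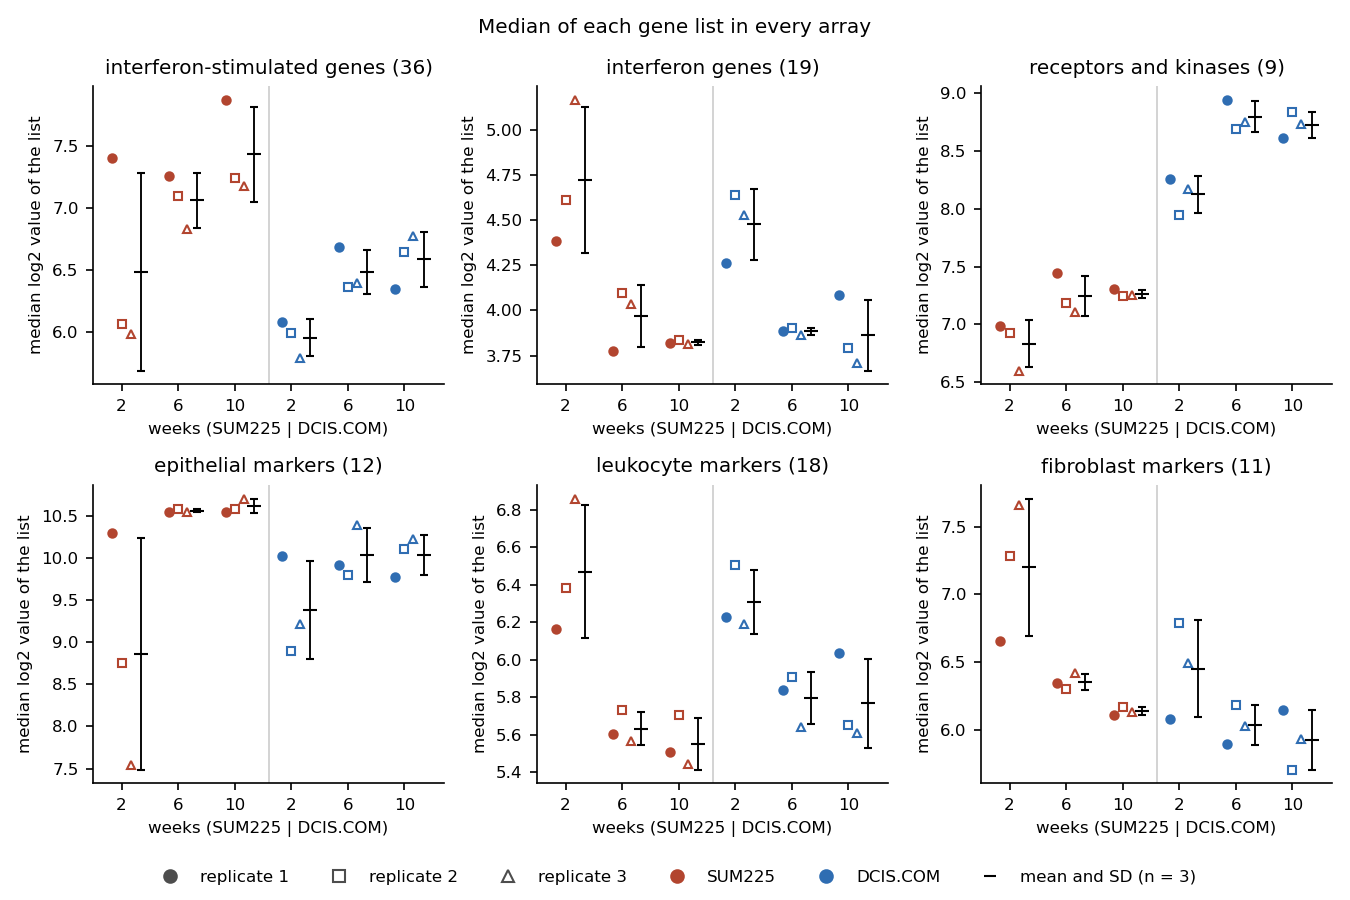
Median log2 value (y axis) over the genes of each list in each array, by week after injection (x axis), for SUM225 (red, left) and DCIS.COM (blue, right), with the mean and SD of the 3 arrays in black. The interferon-stimulated genes lie at 6.83 to 7.88 in SUM225 and 6.35 to 6.78 in DCIS.COM at 6 and 10 weeks, receptors and kinases run the other way, and the SD of the SUM225 arrays at 2 weeks is the largest of the 6 groups in each list shown.

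The list of 20 genes known as targets of interferon gamma was split. At 6 weeks 4 were higher and 4 lower in SUM225, and at 10 weeks 3 were higher and 4 lower, counts near the shares of all genes given for the receptors. ICAM1, an adhesion molecule for leukocytes, was lower in SUM225 by 2.84 ± 0.28 and 2.47 ± 0.24 (adjusted p = 4.5e-05 and 6.6e-05), and CD274, which encodes PD-L1, by 2.20 ± 0.26 and 1.88 ± 0.35 (adjusted p = 0.00013 and 0.0029). GBP2 was higher by 1.38 and 0.69 and GBP3 lower by 1.68 and 1.54. In DCIS.COM 5 of the 20 rose and 3 fell at 6 weeks, near the 22.5% and 20% of all genes, and GBP3 rose by 2.32 ± 0.32, GBP2 by 2.09 ± 0.20 and ICAM1 by 1.68 ± 0.28. In SUM225 1 rose and 8 fell, where 21.7% of all genes rose and 26.5% fell. ICAM1 was the 1 gene of this list whose change differed between the lines (-2.46 ± 0.42, adjusted p = 0.022).

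A further 39 interferon-induced genes outside the set gave 10 higher and 17 lower in SUM225 at 6 weeks, and 8 higher and 13 lower at 10 weeks. Beside them stand 19.7% and 17.2% of all genes at 6 weeks and 16.4% and 15.9% at 10 weeks. CMPK2, a mitochondrial nucleotide kinase whose gene neighbors RSAD2, was 6.96, 5.60 and 5.52 at 6 weeks and 7.23, 6.16 and 5.83 at 10 weeks in SUM225, against 2.87, 2.95 and 2.92 and then 3.08, 3.09 and 2.94 in DCIS.COM, where it was near the bottom of the scale. It differed by 3.11 ± 0.32 and 3.37 ± 0.30 (adjusted p = 6.3e-05 and 3.9e-05). TNFSF10, the death ligand TRAIL, was higher by 1.89 ± 0.14 and 2.65 ± 0.37, and SLFN5 and STAT3 were lower by 1.80 and 1.59 at 6 weeks and by 1.75 and 1.47 at 10 weeks. In DCIS.COM 20 of these genes rose and 2 fell at 6 weeks, where 22.5% of all genes rose and 20% fell. In SUM225 9 rose, near the 21.7% of all genes, and 4 fell, where 26.5% of all genes did. TRIM5, a retroviral restriction factor, rose in both lines, by 2.41 ± 0.59 in SUM225 and 1.93 ± 0.20 in DCIS.COM (adjusted p = 0.038 and 0.002). Of the 18 leukocyte markers 0 were higher and 2 lower in SUM225 at both later weeks, and of 11 fibroblast markers 3 were higher and 0 lower. Of 12 epithelial markers 3 were higher and 5 lower at 6 weeks, and 2 were higher and 3 lower at 10 weeks. The epithelial median was 10.55 to 10.70 in SUM225 and 9.77 to 10.40 in DCIS.COM.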

How the data were processed

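RNA of 18 samples (6 groups of 3) was hybridized to human U133 Plus 2.0 arrays. The deposited values are log2 signals, which the authors made by RMA, with Partek named in the submitters' notes. Their versions, the genome build and the probe annotation are not given in the sources used here. The authors also deposited tables of their own comparison of 6 and 2 weeks, with a fold change ratio for DCIS.COM, a signed score for SUM225 and q-values in percent, of which only the gene names were used. The 62 controls among the 54675 probe sets were not tested. Of the others 36787 had 1 gene symbol, 866 several, 51 a symbol turned into a date and 16909 no name.

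Differences were tested with limma 3.58.1 in R 4.3.3 on all 54613 probe sets, with only the groups compared in each fit and Benjamini-Hochberg adjustment over all probe sets (threshold 0.05). The fits were tested on simulated data. The errors given are standard errors of the fit. The replicates are pools of 5 mice, and with 3 arrays per group their number limits the precision. The labels give no batch. The genes and lists were chosen with earlier results of these data known. Every array's value is given for STAT2, IRF1, IRF9, ISG15, MX1, IFIT1, OAS1 and IFI27 and for up to 6 genes with the largest difference past the threshold in each comparison, and from each pathway list up to 4 such genes are named. GBP2 between the lines was named after its values were seen. A gene of the receptor list is not reported here. SOCS1, ADAR and EIF2AK2 stand in 2 lists each. Promoter sequences are those of RefSeq on GRCh38.p14, for up to 4 of these genes with the motif, brightest first. Alternatives were arrays centered on their medians, a filter at a mean of 5, all 18 arrays in 1 fit, the replicate number as a block, the mean of a gene's probe sets, leaving out arrays, and SAM, the methods' test, at a false discovery rate under 5%.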

Additional observations from a re-analysis of the deposited data

Results flagged for a closer look

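The change of OAS1 between 2 and 6 weeks differed between the lines by a test of the difference itself: it was -0.03 in SUM225 and 2.07 in DCIS.COM, a difference of -2.09 ± 0.34 (limma, adjusted p = 0.016). Over the alternatives the adjusted p ran from 0.0023 to 0.058. It missed the threshold with the replicate number as a block (0.058), with the mean of both probe sets (0.051), without replicate 3 of DCIS.COM at 2 weeks (0.058) and without replicate 2 or 3 of SUM225 at 6 weeks (0.052 and 0.057). The second OAS1 probe set gave -1.34 (adjusted p = 0.3), with changes of 1.09 in SUM225 and 2.43 in DCIS.COM. The cause was not tested.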

How the results depend on the processing

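Counts of called genes moved with the setting as follows. Apart from SAM, the calls over all genes were counted for the main fits only, so these counts have no share beside them. With all 18 arrays in 1 fit 18 were called at 6 against 2 weeks and 25 at 10 against 2 weeks in SUM225, 7 and 10 in DCIS.COM, and 12 between the lines at 2 weeks and 11 at 6 weeks. Centered arrays gave 4 in SUM225 at 6 weeks and 1 between the lines at 2 weeks. With the replicate number as a block 13 and 20 were called in SUM225 at 6 and 10 weeks, 6 in DCIS.COM at 10 weeks and 0 for the difference between lines. Same-numbered arrays did not clearly deviate together in every pair of any comparison, and the main fits did not pair them. Correlations of their deviations from the group means were 0.632, 0.377 and 0.048 between the lines at 2 weeks, with a mean of -0.166 for other pairs. In DCIS.COM at 10 against 2 weeks they were -0.516, -0.267 and 0.01, with a mean of 0.125 for other pairs. Whether the replicate numbers mark a shared batch was not tested. The mean of a gene's probe sets gave 0 for the difference between lines. SAM called 24 genes in SUM225 at 6 weeks, 16 higher and 8 lower. Of all 54613 probe sets it called 13396 higher and 31454 lower in that comparison. Without replicates 2 and 3 of SUM225 at 2 weeks 4 were called at 10 against 2 weeks, 14 between the lines at 2 weeks and 3 for the difference between lines.

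Leaving out 1 array at a time gave 0 to 29 calls at 6 and 0 to 31 at 10 against 2 weeks in SUM225, 12 to 26 and 3 to 24 in DCIS.COM, and 0 to 0 between 10 and 6 weeks in each line. Between the lines it gave 0 to 12 at 2 weeks, 17 to 20 at 6 weeks and 16 to 21 at 10 weeks, and 0 to 12 for the difference in change. In DCIS.COM at 6 weeks 13 were called without replicate 2 or 3 of 2 weeks and 12 without replicate 1 or 3 of 6 weeks. At 10 weeks there were 4 and 5 without replicate 2 and 3 of 2 weeks, and 3 without replicate 2 or 3 of 10 weeks. Without replicate 1 of SUM225 at 2 weeks 12 were called between the lines at 2 weeks (6 higher, 6 lower), where leaving out any other array gave 0 or 1. For the difference in change 12 were called without that replicate (9 more positive, 3 more negative), 2 without replicate 1 of DCIS.COM at 2 weeks, and 0 without replicate 3 of DCIS.COM at 2 weeks or replicate 2 or 3 of SUM225 at 6 weeks.

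Under the mean of a gene's probe sets the direction turned for STAT2 at 6 and 10 against 2 weeks in DCIS.COM (-0.068 and -0.076) and at 6 weeks in SUM225 (-0.018), for HERC6 at 10 weeks in DCIS.COM (-0.017) and for IFIT3 at 6 weeks in SUM225 (0.52). IFIT1, IFIT2, MX1, IFI27, IFI6, ISG15, CXCL10, IFI16, ISG20, HERC6 and OAS1 kept their calls between the lines under all alternatives run at 6 and 10 weeks. At 6 weeks those of IFI44, IFI44L, MX2, OASL, PARP14, IFITM1, IRF9 and STAT2 were lost with all 18 arrays in 1 fit, as were IFIT3, OAS2 and SAMD9 at 10 weeks, and MX2 at 10 weeks without replicate 2 of SUM225. ISG20 at 2 weeks was lost when arrays were centered (adjusted p = 0.068). The causes were not tested. Signals near background, such as IFI16 in SUM225, limit how far a fold change can be read.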
